A study of Mus musculus with 4 samples.

Results

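The Hippo pathway and its YAP/TEAD target genes were followed here through 10 genes, read by symbol from the 27179 rows of the count table. The genes were chosen with earlier results of these data known. They comprised the effectors Yap1, Wwtr1 and Tead1, the kinases Lats1 and Lats2, the LATS-binding protein gene Ajuba, the angiomotin family genes Amotl1 and Amotl2, and the secreted target genes Ccn1 and Ccn2. All 10 were in the table and all 10 passed the filter on low counts, as did 12675 genes in all. The cells were B16F10, a pigmented mouse melanoma line labelled wild type, grown in serum-containing medium. One group received plain olive oil and the other received olive oil that had been treated with ozone, each at 0.01% for 6 h, with 2 RNA-seq libraries per group. Cells without oil were not analysed here, so each difference below is between the oils. Whether the replicates were cultured separately is not stated, and the p-values therefore reflect the spread between these libraries alone, which may be technical.

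The Hippo pathway is a kinase cascade that senses cell contact, the cytoskeleton and stress. When it is active, the MST kinases activate LATS1 and LATS2, which phosphorylate YAP (from Yap1) and TAZ (from Wwtr1) and keep these coactivators out of the nucleus. When it is quiet, YAP and TAZ enter the nucleus, bind DNA through TEAD factors such as TEAD1, and switch on genes that include Ccn1, Ccn2, Lats2 and Amotl2, the last pair of which act back on the pathway as brakes. Messenger RNA levels do not report the phosphorylation state or location of YAP and TAZ.

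Library totals ran from 22539486 to 30038784 counts, and a count of 0 allowed a level of up to 0.107 to 0.132 CPM (3 counts; counting error only), where CPM is counts per 1000000 counts of the scaled library size. The libraries of a group differed by a root mean square of 0.40 (plain oil) and 0.55 (ozonated oil) on the log2 scale over all tested genes. Libraries of different groups differed by 0.46 to 0.67, so the within-group spread overlapped the between-group one. Ozonated oil library 1 was closer to both plain oil libraries (0.46 and 0.48) than to ozonated oil library 2 (0.55). All 7 pigment cell markers checked were detected, with summed levels of 19541 to 26048 CPM, against at most 8.09 CPM for 5 fibroblast and 0.263 CPM for 3 endothelial markers, with Cdh5 and Kdr at 0 counts in all 4 libraries. The sum for the pigment cell markers rests mainly on Pmel, Tyrp1 and Dct, and Mitf, a master regulator of pigment cells, was at 692 and 614 CPM with plain oil and 354 and 253 CPM with ozonated oil (log2 change -1.10, edgeR adjusted p = 0.254). Its part in the results below was not tested. Of leukocyte genes, Cd3e had 0 counts in all 4 libraries, Ptprc at most 2 counts, and Cd68 0.840 to 3.90 CPM. The 4 keratinocyte markers summed to 24.4 and 3.44 CPM with plain oil and 0.921 and 19.1 CPM with ozonated oil, high in 1 library of each group. In bulk RNA, fewer cells of a type and less RNA per cell cannot be told apart.

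Because TEAD factors act through DNA, the RefSeq promoter windows of the genes (GRCm38.p6, 250 bases before to 50 after an annotated start) were searched for the TEAD motif GGAATG on both strands. Windows were listed for 8 of the 10 genes, Tead1 and Ccn2 being those without one, and 6 of the 8 held the motif: Yap1, Wwtr1, Lats2, Ajuba, Amotl2 and Ccn1. Among all 32851 windows 14.7% held it, and among 41 other pathway genes with a window, 14 did. Lats1 and Amotl1 had no match in these windows. The promoters of Ajuba, which held 2 matches, and of Ccn1 are shown from 250 bases before the start up to the start, with the motif (read as CATTCC on the gene's strand) in capitals, because these genes had the smallest p-values of the 10. The Ajuba stretch is chr14:54577662-54577911 and the Ccn1 stretch is chr3:145649986-145650235, both on the minus strand.
Ajuba: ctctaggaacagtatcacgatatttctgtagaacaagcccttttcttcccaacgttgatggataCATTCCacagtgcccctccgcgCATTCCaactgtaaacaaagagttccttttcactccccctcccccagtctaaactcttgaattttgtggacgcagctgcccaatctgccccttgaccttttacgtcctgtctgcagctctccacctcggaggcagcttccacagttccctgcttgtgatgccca
Ccn1: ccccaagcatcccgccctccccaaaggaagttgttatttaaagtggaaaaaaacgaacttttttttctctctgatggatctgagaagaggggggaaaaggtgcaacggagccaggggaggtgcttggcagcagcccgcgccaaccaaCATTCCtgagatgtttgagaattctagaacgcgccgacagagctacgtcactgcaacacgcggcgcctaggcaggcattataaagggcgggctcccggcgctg
In Ajuba the matches began 186 and 164 bases before the start, and in Ccn1 103 bases before it.

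For the other 4 genes with a match, 30 bases around it are shown so that the flanks can be compared. The stretches are chr14:57746102-57746131, chr9:102717727-102717756, chr3:57576029-57576058 and chr9:8004720-8004749, on the plus strand for Amotl2 and on the minus strand for the others.
Lats2: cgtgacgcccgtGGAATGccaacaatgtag
Amotl2: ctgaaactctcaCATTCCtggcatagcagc
Wwtr1: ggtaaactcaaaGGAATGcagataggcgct
Yap1: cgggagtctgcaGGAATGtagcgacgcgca
The match began at base 5 of the transcript in Lats2 (1 of its 2 listed windows), 65 bases before the start in Amotl2, 136 bases before in Wwtr1 (170 before its other listed start) and 141 bases before in Yap1. Several listed starts lie inside the annotated gene bounds, downstream of the outermost start. The start of Amotl1 lies 47974 bases inside, that of Amotl2 713, and those of Lats2 89 and 11794. Those of Yap1, Wwtr1 (its second listed start) and Lats1 lie at most 42 inside. The 250 bases before the outermost starts of Amotl1 and Amotl2 were thus not searched. Those before the outermost starts of Lats2, Yap1 and Lats1 were searched in part. Of the 6 genes with the motif, 5 had lower values with ozonated oil and Wwtr1 a higher one. Over all tested genes with a window, the median log2 change was 0.0093 for the 1366 with the motif and 0.039 for those without. The AP-1 motif TGANTCA (7.81% of all windows) and the CArG box bound by SRF (1.63%) had no match in the windows of the 8 genes. Sequence outside these windows was not searched, and at such shares few matches would be looked for in 8 genes.

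Across the 10 genes, 8 had lower and 2 had higher values with ozonated oil, against 5828 lower and 6847 higher of all 12675 tested genes. The median log2 change of the 10 was -0.61, against a median of 0.035 over all tested genes. No gene passed edgeR's quasi-likelihood test over all genes: 0 of 10 had an adjusted p below 0.05, as did 0 of 12675 (percent called 0). At an unadjusted p below 0.05 there were 6 of the 10, with Ajuba, Ccn1, Ccn2, Lats2 and Amotl2 lower and Wwtr1 higher, against 9.82% of all tested genes (5.29% lower, 4.54% higher). The groups did not overlap for 9 of the 10, against 40.0% of tested genes. Of these, 7 were lower (20.0% of tested genes) and 2 higher (19.9%). As the 10 genes were chosen with earlier results of these data known, the shares describe the set and do not test it. DESeq2 called Ajuba, Ccn1 and Lats2, 3 of the 10, against 2.16% of tested genes. With 1 library left out the members at an unadjusted p below 0.05 numbered 4 to 8, and 0 were called except without ozonated oil library 1, when Ajuba, Ccn1, Lats2 and Tead1 were. In that fit 389 of 13099 tested genes were called (2.97%), and the median of the 10 was -0.96.

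**Figure D1:**
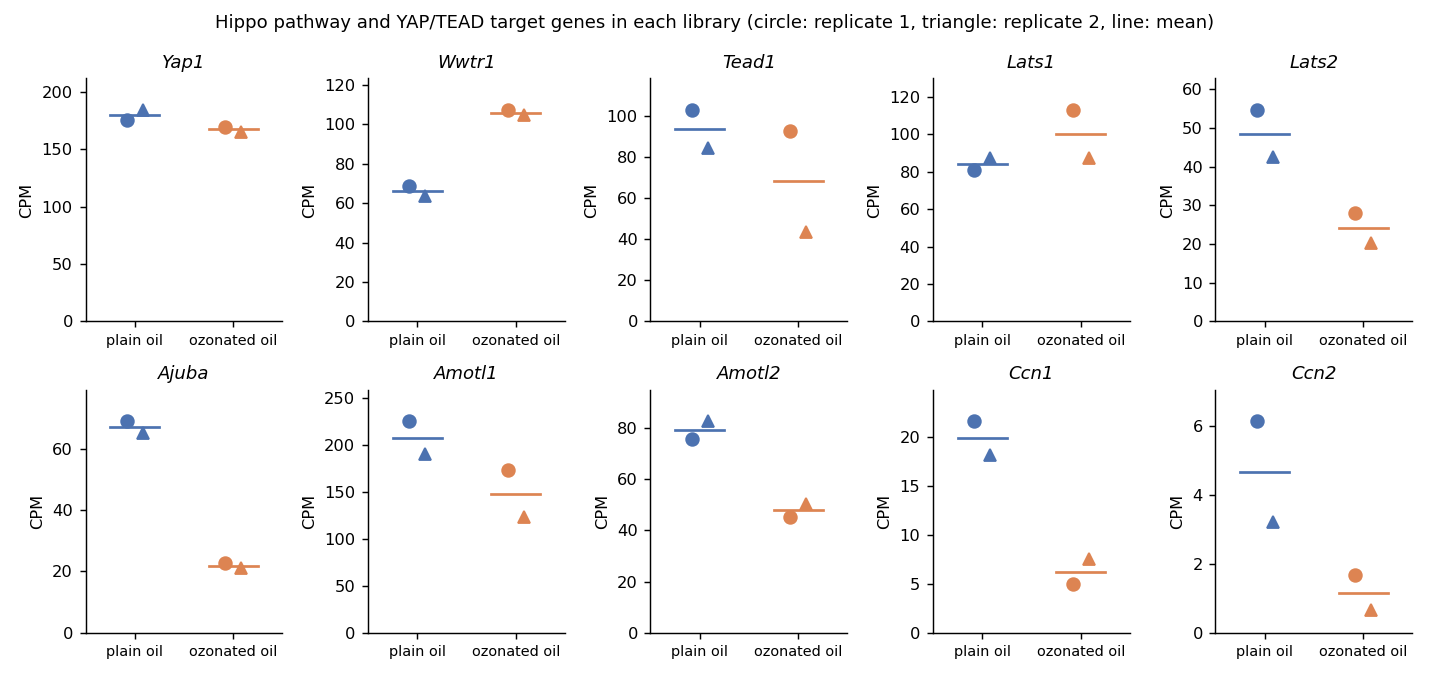
Level of each of the 10 genes in CPM (vertical axis, starting at 0) in the 2 plain oil (blue) and 2 ozonated oil (orange) libraries; circles are replicate 1, triangles replicate 2 and lines group means. Ajuba, Ccn1, Ccn2, Lats2 and Amotl2 sit lower and Wwtr1 higher with ozonated oil without overlap, while the Tead1 groups overlap.

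The effectors differed in direction. Yap1 (chromosome 9, 7931999 to 8004638), which encodes the coactivator YAP, was at 176 and 184 CPM with plain oil and 170 and 165 CPM with ozonated oil. Both ozonated oil values were below both plain oil values, but the difference was small, at -0.10 on the log2 scale (standard error 0.17, edgeR adjusted p = 0.897).

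Wwtr1 (chromosome 3, 57455644 to 57575910), the gene of the related coactivator TAZ, was at 68.9 and 63.6 CPM with plain oil and 107 and 105 CPM with ozonated oil. The ozonated oil libraries were nearly equal and both far above the plain oil pair. Its log2 change was 0.68 (standard error 0.16, edgeR adjusted p = 0.289), or 1.60-fold, and it stayed between 0.62 and 0.74 with any 1 library left out. Within a library the ratio of Wwtr1 to Yap1, each per kilobase of its longest annotated transcript, does not depend on scaling. That ratio, chosen after the values were seen, was 0.440 and 0.388 with plain oil and 0.710 and 0.712 with ozonated oil. By this measure Wwtr1 remained below Yap1 in every library, by a smaller margin with ozonated oil. The level of the ratio, but not its fold change between groups, depends on the transcript lengths taken.

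Tead1 (chromosome 7, 112679356 to 112906784), which encodes a DNA-binding partner of both coactivators, was at 103 and 84.4 CPM with plain oil and 93.0 and 43.7 CPM with ozonated oil. Its groups overlapped, with ozonated oil library 1 between the plain oil values and library 2 far below them. On the log2 scale the change was -0.46 (standard error 0.36, edgeR adjusted p = 0.769). It was -1.13 without ozonated oil library 1, when it was called (edgeR adjusted p = 0.0412, against at least 0.974 with any other library left out), and -0.020 when library 2 was removed instead.

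The LATS kinases, which phosphorylate YAP and TAZ, differed in direction. Lats1 (chromosome 10, 7681200 to 7716461) was at 80.7 and 87.0 CPM with plain oil and 113 and 87.3 CPM with ozonated oil. The second ozonated oil value was barely above the second plain oil value, and the log2 change of 0.25 (standard error 0.19, edgeR adjusted p = 0.758) was 0.026 without ozonated oil library 1. The gene overlaps Pcmt1 in the annotation, and as the strand setting of the counting is not known here, reads in the overlap may have been assigned to either.

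Lats2 (chromosome 14, 57689662 to 57746212), itself a known YAP/TEAD target, was at 54.7 and 42.4 CPM with plain oil and 28.0 and 20.2 CPM with ozonated oil. Every ozonated oil value was below every plain oil value. The change was -1.01 on the log2 scale (standard error 0.24, edgeR adjusted p = 0.289), or 0.497-fold. It ranged from -1.29 to -0.80 with 1 library left out, and it was called without ozonated oil library 1 (edgeR adjusted p = 0.0412, against at least 0.227 with any other library left out). The ratio of Lats2 to Lats1 per kilobase, also chosen after the values were seen, was 0.940 and 0.677 with plain oil and 0.344 and 0.322 with ozonated oil, which does not overlap.

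Ajuba (chromosome 14, 54567469 to 54577661) encodes a LIM protein that binds LATS at cell junctions and holds its activity down, and so acts on the side of YAP. It was at 68.9 and 65.0 CPM with plain oil and 22.6 and 21.2 CPM with ozonated oil. Replicates were close to each other in both groups, and the groups were widely separated. The change was -1.61 on the log2 scale (standard error 0.18), or 0.327-fold, and its p ranked 5 among the 12675 genes, at the smallest adjusted p that edgeR gave (0.166, shared by 29 genes). With 1 library left out the log2 change stayed between -1.69 and -1.57, and Ajuba was called without ozonated oil library 1 (adjusted p = 0.0201, highest 0.247 over the libraries left out). The promoter shown above with 2 TEAD motifs is that of this gene.

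The angiomotin family genes encode junction and actin-associated proteins that bind YAP and retain it outside the nucleus. Amotl1 (chromosome 9, 14541966 to 14662974) was at 225 and 190 CPM with plain oil and 173 and 123 CPM with ozonated oil. These values did not overlap, but the spread within each group was wide beside the difference. Its log2 change of -0.49 (standard error 0.23, edgeR adjusted p = 0.571) was -0.79 when ozonated oil library 1 was left out and -0.27 when library 2 was.

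Amotl2 (chromosome 9, 102717091 to 102733418), which is also a YAP/TEAD target, was at 75.5 and 82.4 CPM with plain oil and 45.3 and 50.3 CPM with ozonated oil. The groups were separate and the replicates close. Its log2 change was -0.73 (standard error 0.17, edgeR adjusted p = 0.275), or 0.605-fold, and stayed between -0.81 and -0.66 with 1 library left out. The ratio of Amotl2 to Amotl1 per kilobase was 0.680 and 0.877 with plain oil and 0.529 and 0.826 with ozonated oil, which overlaps.

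The secreted CCN proteins are matricellular proteins, and their genes are the readouts most often used for YAP and TAZ activity, although SRF and other factors also act on them. Ccn1 (chromosome 3, 145646971 to 145649985) was at 21.6 and 18.2 CPM with plain oil and 4.96 and 7.52 CPM with ozonated oil. Both ozonated oil libraries were far below both plain oil libraries. Ccn1 had a log2 change of -1.67 (standard error 0.29, edgeR adjusted p = 0.195), or 0.314-fold. It was between -2.01 and -1.44 with 1 library left out, and Ccn1 was called without ozonated oil library 1 (adjusted p = 0.0447, highest 0.587 over the libraries left out).

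Ccn2 (chromosome 10, 24595442 to 24598683) was the least abundant of the 10, with raw counts of 145 and 77 with plain oil and 38 and 19 with ozonated oil. Exact 95% Poisson intervals were 122 to 171 and 60.8 to 96.2 counts for plain oil and 26.9 to 52.2 and 11.4 to 29.7 for ozonated oil, counting error only. The intervals did not meet between groups, but neither did those of the plain oil replicates. In CPM it was at 6.14 and 3.23 against 1.67 and 0.677. Ccn2 had a log2 change of -2.01 (standard error 0.59, edgeR adjusted p = 0.344), or 0.248-fold. It was -2.81 without ozonated oil library 1 and -1.47 without plain oil library 1.

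**Figure D2:**
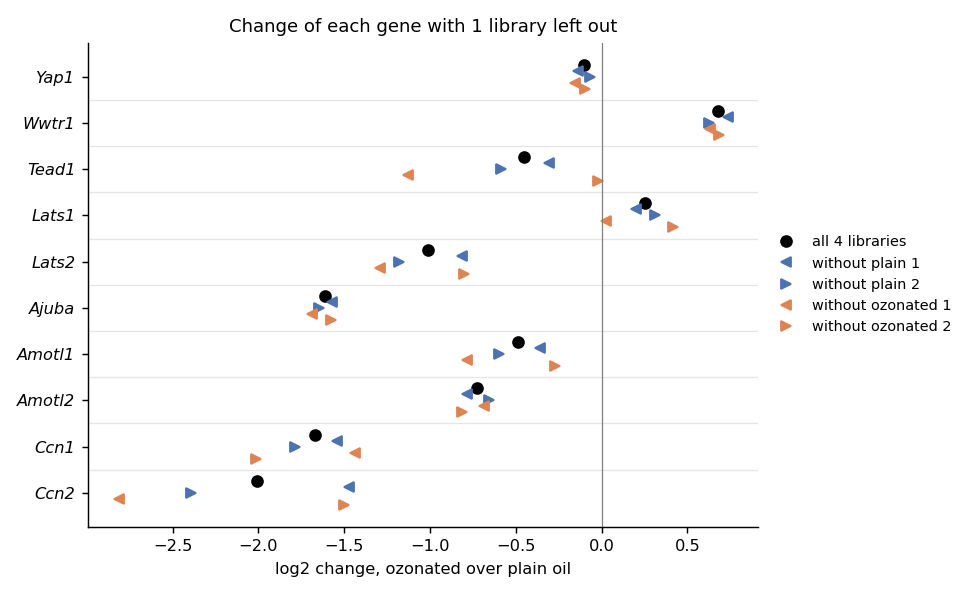
Log2 change of ozonated over plain oil (horizontal axis) for each of the 10 genes with all 4 libraries (black circles) and with 1 library left out (triangles, coloured by the group of the library removed). The points of Ajuba stay between -1.69 and -1.57 and those of Wwtr1 between 0.62 and 0.74, while Tead1 spreads from -1.13 to -0.020.

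On a per-length scale the order of the levels was led by Yap1 in both groups. With plain oil the mean CPM per kilobase of longest annotated transcript was 34.1 for Yap1, 23.2 for Amotl1, 19.7 for Ajuba, 17.8 for Amotl2, 14.1 for Wwtr1 and 11.6 for Lats1. Below these, Ccn1 (9.86), Tead1 (9.40) and Lats2 (9.35) had overlapping values, and Ccn2 was at 1.88. With ozonated oil the order was Yap1 at 31.7, Wwtr1 at 22.6, Amotl1 at 16.5 and Lats1 at 13.9, the last 2 overlapping, followed by Amotl2 at 10.8. The values of Tead1 (mean 6.86) overlapped those of Ajuba (6.45) and of Lats2 (4.64), with Ccn1 at 3.09 and Ccn2 at 0.471. Wwtr1 thus went from the fifth to the second place, and Ajuba from the third place, above Amotl2, to one below Amotl2 that was not separate from Tead1, as a description of levels per kilobase.

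**Figure D3:**
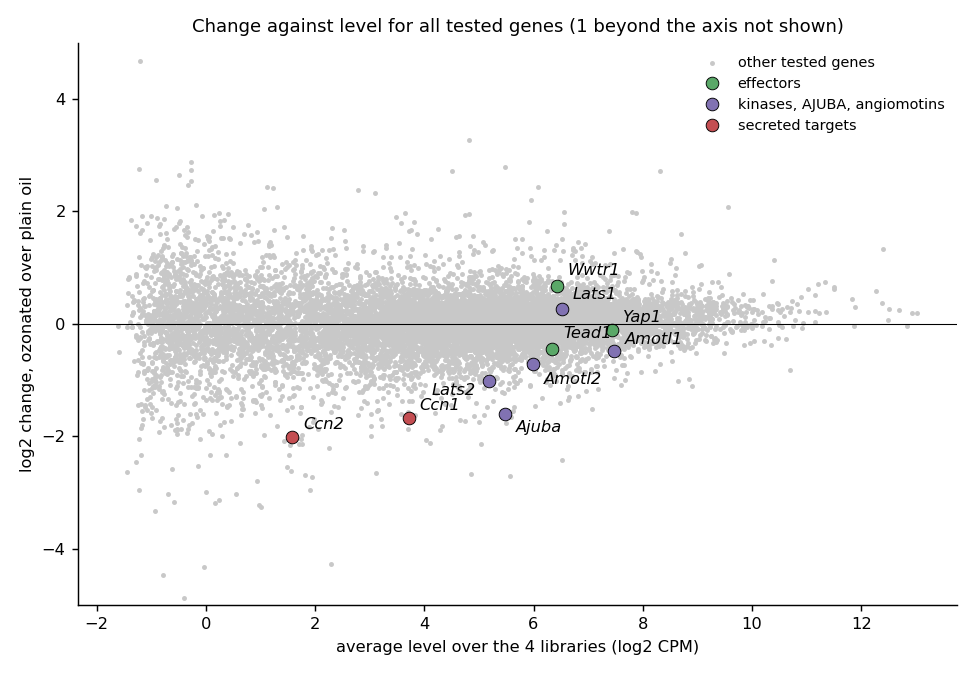
Log2 change of ozonated over plain oil (vertical axis) against the average level in log2 CPM (horizontal axis) for all tested genes in grey, with the 10 genes marked by role. Ajuba (-1.61), Ccn1 (-1.67) and Ccn2 (-2.01) lie below most genes of like level and Yap1 (-0.10) close to 0.

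The rest of the pathway was read from lists of other genes, the target signature below among them. These lists too were chosen with earlier results of these data known, so their shares describe them and do not test them. Of 55 further genes 46 could be tested, 0 had an adjusted p below 0.05 by edgeR and 9 had an unadjusted p below 0.05 (9.82% of all tested genes). DESeq2 called 2 of the 46, Vgll3 and Limd1, against 2.16% of all tested genes. The core kinase module, which holds the MST kinases and the LATS cofactors, had 4 of 7 genes higher and 3 lower, 0 at an unadjusted p below 0.05 and a median log2 change of 0.063. Stk38, an NDR kinase related to LATS, was at 99.3 and 106 CPM with plain oil and 126 and 126 CPM with ozonated oil (log2 change 0.30, standard error 0.16). Stk4, which encodes MST1, had a log2 change of -0.21, the scaffold gene Sav1 one of 0.14, and Mob1b, a LATS coactivator, one of 0.31 that was -0.20 without ozonated oil library 1.

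Among 21 tested upstream regulators of 23 listed, 9 were higher and 12 lower, with a median log2 change of -0.024 (-0.31 without ozonated oil library 1). At an unadjusted p below 0.05 by edgeR there were 4, all lower, against 5.29% of tested genes lower and 4.54% higher. The 4 included both relatives of Ajuba in the list. The groups overlapped for 14 of the 21, against 7608 of all 12675 tested genes. Limd1 was at 102 and 98.3 CPM with plain oil and 51.3 and 46.9 CPM with ozonated oil (log2 change -1.03, standard error 0.16, edgeR adjusted p = 0.183). Wtip was at 29.0 and 27.7 against 15.7 and 19.2 CPM (log2 change -0.70, standard error 0.21, edgeR adjusted p = 0.347). All 3 genes of this LIM protein family, which bind LATS, were thus lower without overlap between groups, as were 20.0% of tested genes. Limd1 and Wtip are named because their p-values were among the smallest of the list. Wwc1, which encodes the scaffold KIBRA, had a log2 change of -0.89 and Frmd6, a FERM-domain gene, one of -0.55. Leaving out ozonated oil library 1 moved Frmd6 to -0.85, and leaving out library 2 of that group moved it to -0.33. When ozonated oil library 1 was left out, 2.97% of all tested genes were called, and the calls here were Wwc1, Limd1 and Fat1, with Vgll3 and Vgll4 among the TEAD partners. Fat1, an atypical cadherin gene, had overlapping groups with all 4 libraries, at 263 and 223 CPM with plain oil and 363 and 115 CPM with ozonated oil (log2 change -0.02). Fat4 had 0 counts in all 4 libraries and Dchs1 had 1 count in 1 library.

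The TEAD partners were read in 5 tested genes of 7, of which 1 was higher and 4 lower. At an unadjusted p below 0.05 by edgeR there were 2, Vgll3 and Vgll4, both lower, against 5.29% of tested genes lower and 4.54% higher. The groups overlapped for 3 of the 5, against 7608 of all 12675 tested genes. Vgll3, a vestigial-like cofactor that binds TEADs, was at 149 and 111 CPM with plain oil and 55.4 and 41.8 CPM with ozonated oil. The groups were well separated, at -1.42 on the log2 scale (standard error 0.24, edgeR adjusted p = 0.183). Vgll4, which competes with YAP for TEADs, was at 35.3 and 38.8 against 23.2 and 18.3 CPM (log2 change -0.84, standard error 0.21, edgeR adjusted p = 0.290). Tead3 was at 3.43 and 3.61 CPM with plain oil and 4.96 and 3.14 CPM with ozonated oil, and Tead4 at 20.7 and 12.6 against 16.2 and 10.7 CPM, each with overlapping groups. These 5 had a median log2 change of -0.31, which was 0.089 with plain oil library 1 left out, -0.62 with plain oil library 2, -0.71 with ozonated oil library 1 and -0.047 with ozonated oil library 2. Vgll1 and Vgll2 had 0 counts in all 4 libraries.

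Beyond the members, 18 further genes of a published YAP/TAZ target signature were followed, and 13 could be tested. Of these, 12 were lower and 1 higher, against 5828 lower and 6847 higher of all 12675 tested genes. At an unadjusted p below 0.05 by edgeR there were 2 lower and 1 higher, against 5.29% and 4.54% of tested genes. The groups overlapped for 9 of the 13, against 7608 of all 12675 tested genes. F3, which encodes tissue factor, was at 25.1 and 20.9 CPM with plain oil and 14.2 and 12.3 CPM with ozonated oil (log2 change -0.80, standard error 0.22, edgeR adjusted p = 0.333). Fjx1, the mammalian four-jointed gene, was at 7.88 and 4.45 against 3.07 and 1.53 CPM (log2 change -1.43, standard error 0.49), and was at -0.96 without plain oil library 1. Gadd45a, a stress-responsive gene that p53 and other factors also control, was the exception, at 6.19 and 5.79 against 7.94 and 12.9 CPM (log2 change 0.80, standard error 0.32), and was at 0.40 without ozonated oil library 2. Myof, a membrane repair gene, had a wide spread within each group, at 97.0 and 39.1 against 55.0 and 19.9 CPM. The 13 had a median log2 change of -0.32, which ranged from -0.93 with ozonated oil library 1 left out to -0.023 with ozonated oil library 2 left out, and was -0.12 or -0.74 when plain oil library 1 or 2 was removed. Ankrd1 and Foxf2 had 0 counts in all 4 libraries, and Igfbp3, Nt5e and Nuak2 had at most 4 counts in a library.

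**Figure D4:**
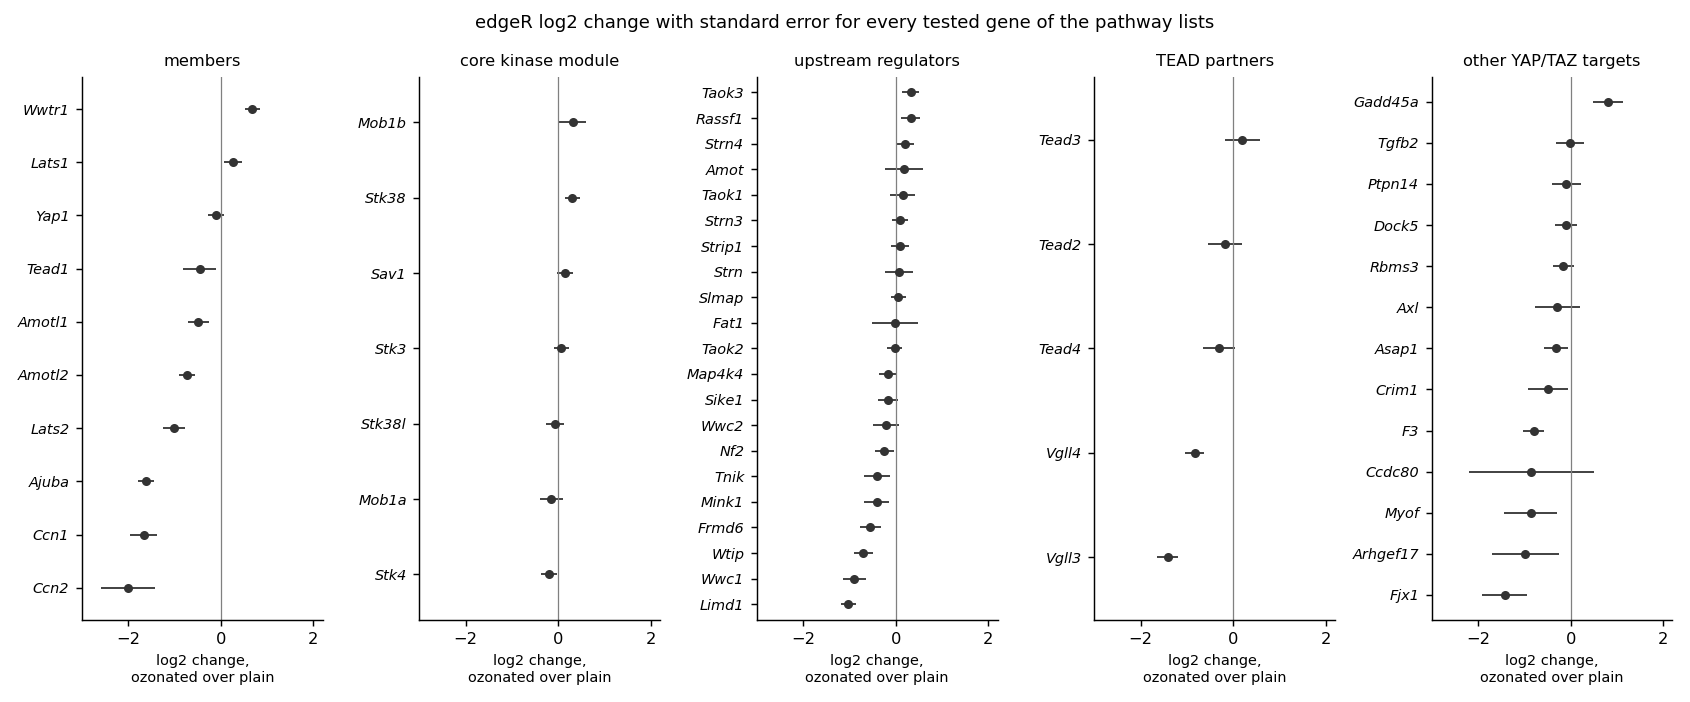
Log2 change of ozonated over plain oil with its edgeR standard error (horizontal bars) for the 10 members and for every tested gene of the other lists, sorted within each panel. The core kinase module lies between -0.21 and 0.31, while Limd1, Vgll3 and Fjx1 lie at -1.03 or below.

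Genes whose pattern over the 4 libraries was most like that of the CCN genes were found by the root mean square distance between centred log2 profiles, over 9941 genes for Ccn1 and 9942 for Ccn2 with a mean of at least 5 CPM. For Ccn1 the nearest were the receptor kinase feedback inhibitors Spry2 (distance 0.086) and Spry1 (0.097), and the uracil-removing DNA repair gene Ung (0.12), with log2 changes of -1.83, -1.54 and -1.60. For Ccn2 they were the ETS factor gene Elk3 (0.068), Rab3il1 (0.13) and Ehd3 (0.13), with log2 changes of -1.73, -1.60 and -1.49. In ozonated oil library 2 Ccn1 was higher than in library 1, whereas Ccn2 was lower. Such likeness over 4 libraries is a description of these samples.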

How the data were processed

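RNA-seq of 4 B16F10 libraries was deposited as a table of raw whole-number counts by gene, and each of the 4 sample columns matched 1 library label. Per the submitters' processing notes, the authors used the build mm10 with the aligner HISAT2 2.1.0, with StringTie 1.3.4d, SAMtools 1.9 and bedtools 2.27.1, and with edgeR. How reads were assigned to genes, with which annotation and strand setting, is not stated. The 1319 rows without a symbol (at most 0.218% of counts) carry gene identifiers and were kept.

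Here filterByExpr, trimmed mean of M-values scaling and edgeR 4.0.16 (quasi-likelihood F-test, two-sided, R 4.3.3) were used with the group alone in the model. P-values were adjusted by Benjamini-Hochberg over all tested genes at a threshold of 0.05, and a standard error is the log2 change over the root of F. An exact permutation test of 2 libraries against 2 has a smallest p of 0.333 and was left out. The fit was repeated with median-of-ratios scaling, without a filter, with 1 CPM in 2 libraries as the filter, with the replicate number as a block, without each library (a lone library was taken to vary as the other group does), with DESeq2 1.42.0 and at a threshold of 0.1. The members and gene lists were chosen with earlier results of these data known. All members, up to 4 genes per other list by smallest p, and the 3 genes most like each CCN gene are named. Fat1, Pcmt1, Mitf, the other single marker genes and the untested genes were named after their values were seen. Positions came from RefSeq GRCm38.p6, the assembly behind mm10, and transcript lengths from GENCODE M21 on the same assembly. Protein motifs were not analysed here.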

Additional observations from a re-analysis of the deposited data

How the results depend on the processing

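Of the 10 genes, 8 had lower values under every alternative run, and no member reversed. Over all genes, edgeR's count of 0 calls became 4 with no low-count filter, 274 with DESeq2 and 1 to 389 with 1 library left out. Among the 10 genes the count of 0 became 3 with DESeq2 and 0 to 4 with 1 library left out, and among the other pathway genes it became 2 and 0 to 5. Under median-of-ratios scaling, the filter of 1 CPM in 2 libraries and the threshold of 0.1 all 3 counts were 0. Tead4 ran from -0.67 to 0.089, Tead3 from -0.20 to 0.48 and Mob1b from -0.20 to 0.66 with 1 library left out, which reversed each of them once. The cause was not tested.

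With the replicate number as a block there were 1160 calls over all genes, 6 among the 10 (Ajuba, Ccn1, Ccn2, Lats2, Amotl2 and Wwtr1) and 10 among the other pathway genes. Same-numbered libraries deviated together, with a correlation of 0.526 over tested genes. This is a hint of shared replicate effects from the data and not from the design: the labels do not say that the numbers mark a shared batch or day, and there are 2 pairs only, so the block was kept as an alternative. With 2 libraries per group, precision is limited by the spread between libraries, and counting error is largest for Ccn2.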
